A study of Homo sapiens with 75 samples.

Results

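TK6 is a human B lymphoblastoid line, and its messenger RNA levels before any treatment were set against those of 4 other human cell lines. The arrays used were those labelled untreated at 0 h: 3 of TK6 as the line described, and 3 each of G361, HepG2, U2OS and BJ, which makes 15 of the 75 arrays in the series. The whole series asked how these 5 lines respond to 5 Gy of ionising radiation, with irradiated cells at 3 h and 6 h and mock-irradiated cells at 0 h, 3 h and 6 h, 3 arrays in each of 25 groups. All 15 arrays used here came from cells that received no radiation and, per the labels, were grown in DMEM with 10% FCS. G361 is a melanoma line, HepG2 is a liver tumour line, U2OS is an osteosarcoma line and BJ cells are skin fibroblasts, so each cell type is represented by 1 line only. The labels do not say whether the 3 arrays of a line came from separate cultures, and p-values therefore measure the spread between arrays, which may be technical. In bulk RNA of this kind, fewer cells of a type and less RNA per cell cannot be told apart.

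B cells recognise antigen through a membrane immunoglobulin that is coupled to CD79A and CD79B and signals through the kinases LYN, SYK and BTK and the adaptor BLNK. They present peptides on MHC class II molecules, which travel with the invariant chain CD74 and are switched on by the coactivator CIITA. TK6 cells grow in suspension, whereas the other lines grow attached to plastic, where integrins, actin stress fibres and the coactivators YAP1 and WWTR1 take part in adhesion and its signalling.

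Levels are on the log2 scale, and 1 probe set stands for each of 19775 genes. A difference is the TK6 mean minus the mean of the 4 other lines' means, given with its standard error (SE), and a gene was called higher or lower where limma's Benjamini-Hochberg adjusted p was under 0.05 and the difference was at least 1 log2, a 2-fold change. A second, stricter call asked the same of the line nearest to TK6, so that no single line could make the difference. No filter on low values was used, and levels under 3.50 log2, the 40th percentile of all probe sets, are called low because differences between such levels are compressed on arrays of this kind. Array medians lay between 3.92 and 4.03 log2, the TK6 arrays correlated with each other at 0.991 or more and with arrays of the other lines at no more than 0.886, and the median SD of a gene over the TK6 arrays was 0.154 log2. Replicate 1 of G361 stood apart in its GAPDH control, whose 5′ minus 3′ difference was -0.918 log2, against -0.177 or above on the other 14 arrays.

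The labels of the lines were checked against marker genes first. CD79A, the signalling chain of the B cell receptor, was at 9.92, 9.18 and 9.17 log2 in TK6, and the other 12 arrays ran from 4.30 through a median of 4.86 to 5.22. CD74 was at 12.50, 11.87 and 11.89 log2 in TK6, against a lowest, median and highest value of 3.71, 4.07 and 4.65 in the other lines. Both groups lay far apart for both genes, and 8 of 10 measured B lymphoid markers were called higher in TK6, where 8.55% of all genes were. The arrays labelled HepG2 did not carry their tissue's markers: ALB, the albumin gene, averaged 2.91 ± 0.14 log2 there (SD, n = 3), a low level, and 2.81 ± 0.14 in TK6. Of 9 measured hepatocyte markers, AFP (alpha-fetoprotein) was called lower in TK6, at 3.53 against 5.70 log2 in the arrays labelled HepG2 and 5.64 in U2OS, and SERPINA1 was called lower through U2OS, where it was at 8.64 log2. Counts are therefore also given without those arrays.

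TK6 differed from the other lines in 3952 of 19775 genes, 20.0%. Of these, 1691 genes (8.55%) were higher and 2261 (11.4%) lower in TK6. Against the nearest line, 748 genes (3.78%) were higher and 758 (3.83%) lower. For 3439 genes, 17.4%, the 3 TK6 arrays did not overlap the 12 others. Without the arrays labelled HepG2 the 4 counts were 1729 higher and 2437 lower against the mean, and 882 higher and 993 lower against the nearest of the remaining lines. Among the genes lower than in every other line, 254 of 758 were lower by 8-fold or more and 71 by 32-fold or more, and 318 had a low level in TK6. Among those higher than in every other line, 178 of 748 were higher by 8-fold or more and 50 by 32-fold or more, and 127 were low in all 4 other lines. The same nearest-line test gave 777 genes higher and 466 lower for BJ, 540 and 202 for U2OS, 430 and 134 for G361 and 232 and 170 for HepG2. TK6 thus had the most genes lower than in any other line, while BJ had the most higher.

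**Figure D1:**
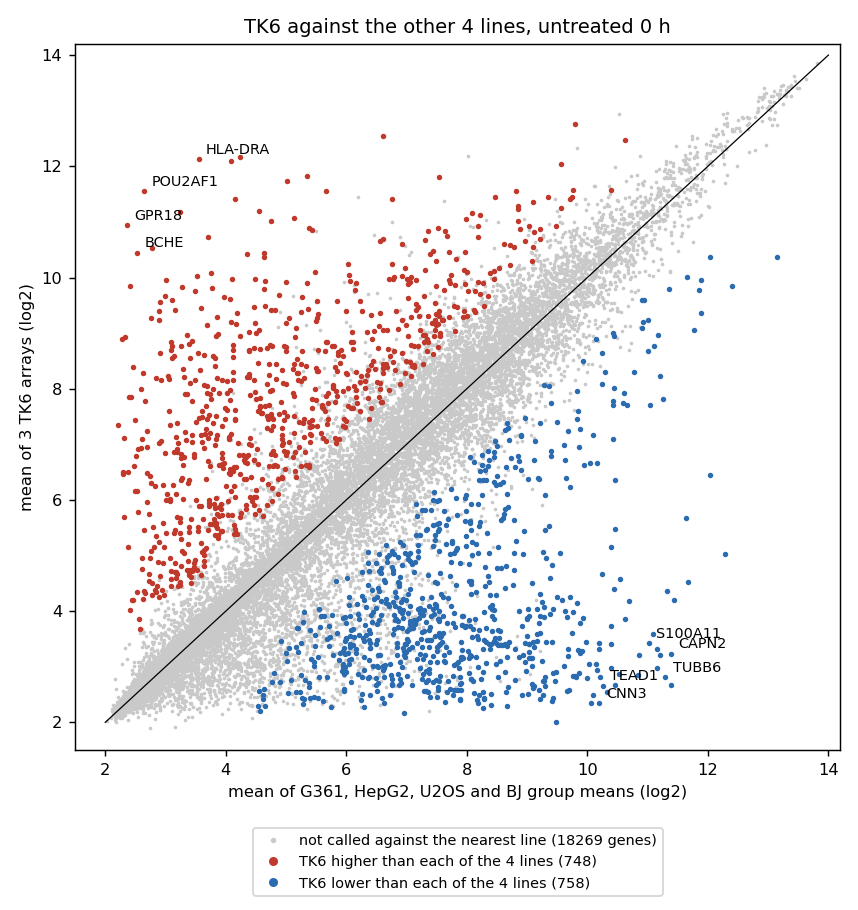
Each of 19775 genes is drawn at its mean over the 3 TK6 arrays (vertical, log2) and at the mean of the 4 other lines' means (horizontal, log2), and the line marks equality. The 748 genes higher than in every other line (red) include HLA-DRA, POU2AF1, GPR18 and BCHE, and the 758 lower than in every other line (blue) include TUBB6, CNN3 and TEAD1, where 318 of the 758 lie at low levels in TK6.

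The contrast was then made on arrays it had not used, those of untreated cells at 3 h and at 6 h. Of the 1691 genes higher in TK6 at 0 h, 1400 (82.8%) were called higher again at 3 h and 1330 (78.7%) at 6 h. Of the 2261 lower genes, 2037 (90.1%) and 2058 (91.0%) were called lower again. At those times 8.14% and 7.85% of all genes were called higher and 11.4% and 11.7% lower. All 748 and 758 genes called against the nearest line kept the sign of their difference from the mean of the 4 lines at both times. Of the higher ones 595 and 587, and of the lower ones 695 and 698, passed the nearest-line call again at 3 h and at 6 h. In that way 3.46% and 3.44% of all genes were called higher at those times and 3.99% and 4.03% lower.

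The 12 genes with the largest excess over the nearest line included antigen presentation, receptor signalling and lymphocyte surface genes. POU2AF1, a B cell transcriptional coactivator that works with the octamer factors, was at 11.40, 11.65 and 11.60 log2 in TK6, against 2.41 to 2.97 log2 (median 2.59) on the other arrays. It exceeded HepG2, its nearest line, by 8.73 ± 0.18 log2 (SE, adjusted p = 6.1e-21 by limma), and by 8.05 log2 when counted from the limit for low levels. GPR18, a lipid receptor of leukocytes, was at 11.14, 10.90 and 10.78 log2 in TK6, against 1.99 to 2.73 log2 (median 2.35). BCHE, which encodes the serum cholinesterase, was at 10.40, 10.49 and 10.45 log2 in TK6, against 2.24 to 3.04 log2 (median 2.47). That every TK6 array lay above every other array was a condition for naming these 12. The others were HLA-DRA, CD74, CD48, CCR7, BLNK, HLA-DRB1, FFAR2, HLA-DPA1 and HCLS1, with excesses over the nearest line between 6.58 log2 in HCLS1 and 8.47 log2 in HLA-DRA.

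The 12 genes with the largest deficit included genes of the cytoskeleton, of proteolysis and of membrane traffic. TUBB6, a beta tubulin, was at 2.48, 2.85 and 3.10 log2 in TK6, against 10.98 to 11.58 log2 (median 11.33) on the other arrays, with a difference of -8.28 ± 0.14 log2 (SE) from HepG2, its nearest line (adjusted p = 3.59e-22 by limma). CNN3, an actin-binding calponin, was at 2.41, 2.15 and 2.46 log2 in TK6, against 9.49 to 10.78 log2 (median 10.18). CALD1, the actin-binding caldesmon, was at 3.07, 2.90 and 2.98 log2 in TK6, against 9.71 to 12.72 log2 (median 11.04). The TK6 levels of all 3 genes were low, so the size of these differences is set by the levels in the other lines. S100A11, CAPN2 (a calpain protease), OAT (ornithine aminotransferase), GPX8, EMP1, LAPTM4B, SEPTIN10, RAB13 and RAI14 completed the 12, with differences from the nearest line between -7.43 log2 in S100A11 and -6.74 log2 in RAI14.

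Gene lists were described by how many measured members were called, beside the shares of all genes given above and a median difference of 0.02 log2 over all 19775 genes. The lists of B cell receptor signalling, MHC class I and class II, NF-kB and CD40 activation and pan-leukocyte genes had most of their members higher in TK6, and those of immunoglobulin, plasma cell and germinal centre genes did not. Lists of matrix, adhesion and growth factor receptor genes had most of their members lower. The G2 and mitosis list had 8 of 40 members higher, a larger share than the 8.55% of all genes, and 1 lower. The DNA replication and p53 lists had 3 of 33 and 3 of 26 members higher, near that share, and 2 each lower. The repair and reporter list had 2 higher and 3 lower of 10 measured.

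**Figure D2:**
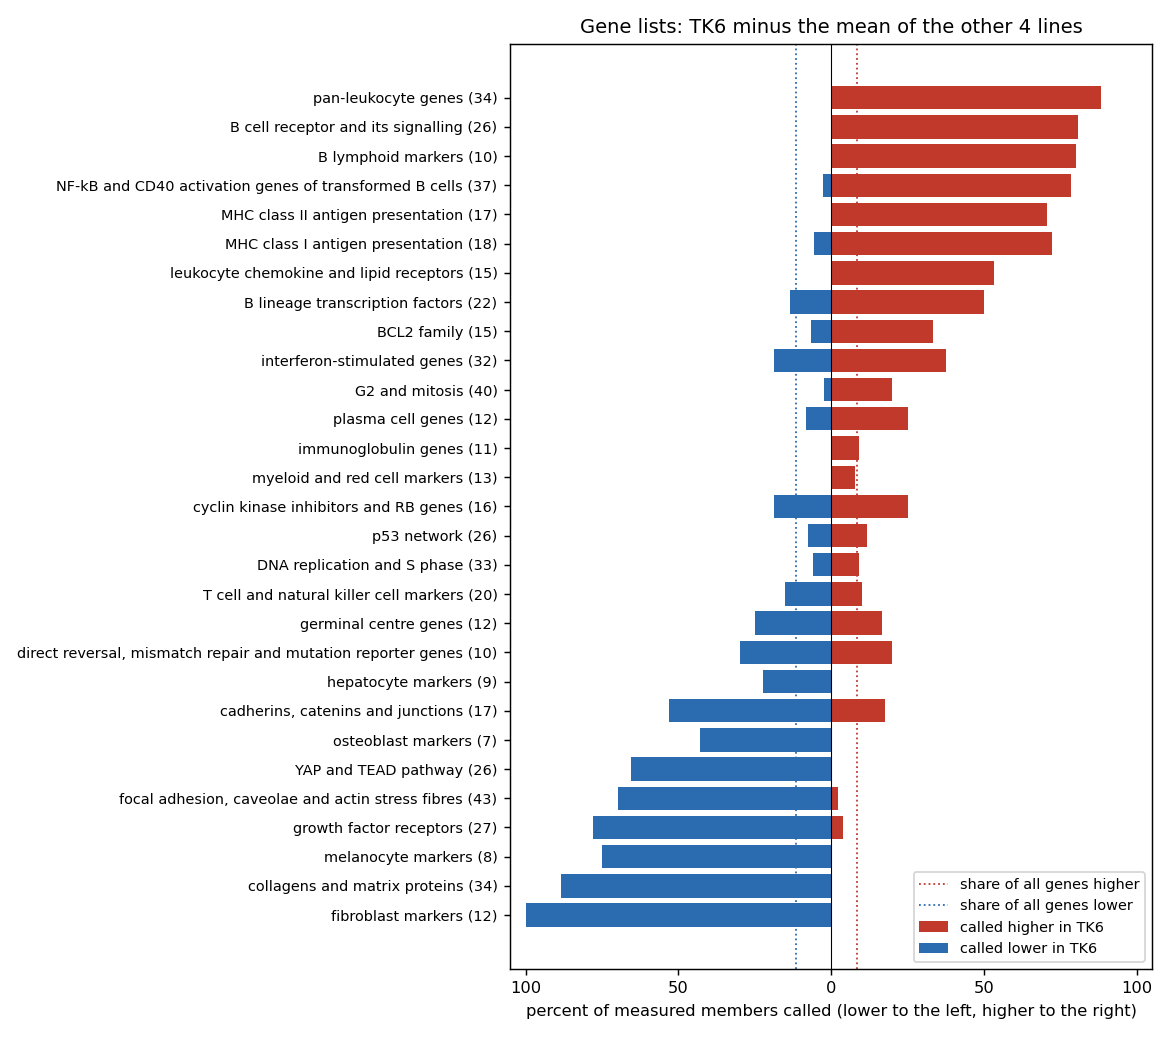
For each of 29 gene lists (number of measured members in brackets), bars give the percent of members called higher (red, to the right) and lower (blue, to the left) in TK6 against the mean of the other 4 lines, and dotted lines give the shares of all genes, 8.55% and 11.4%. Pan-leukocyte genes have 30 of 34 members higher and collagens and matrix proteins 30 of 34 lower.

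Of 26 measured genes of the B cell receptor and its signalling, 21 were higher in TK6 and none was lower, 19 also exceeded every other line, and the median difference was 3.59 log2. BLNK, the adaptor that links SYK to the phospholipase PLCG2, was at 9.66, 9.96 and 9.89 log2 in TK6, against 2.22 to 2.75 log2 (median 2.38) elsewhere. Its difference was 7.43 ± 0.13 log2 (adjusted p = 2.47e-23 by limma). MS4A1, the B cell surface protein CD20, was at 9.32, 9.34 and 9.52 log2 in TK6, against 2.66 to 3.46 log2 (median 2.85). BTK, the tyrosine kinase downstream of SYK, was at 8.04, 8.30 and 8.11 log2 in TK6, against 3.64 to 4.34 log2 (median 3.92). In each of these genes the other 4 lines lay together and TK6 stood alone. SYK itself differed by 3.91 ± 0.15 log2, LYN, the Src-family kinase that phosphorylates the receptor, by 3.20 ± 0.15 log2, and PLCG2 by 4.70 ± 0.17 log2. CD79B, the partner of CD79A, was at 7.36, 6.88 and 6.89 log2 in TK6, against 3.41 to 3.94 log2 (median 3.62).

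Some members were shared with a line outside the lymphoid lineage. PRKCB, a protein kinase C that acts downstream of the receptor, averaged 9.36 log2 in TK6 and 6.46 log2 in G361, and the 3 remaining lines had 3.12 to 3.61 log2. FCGR2B, the inhibitory Fc receptor of B cells, averaged 7.49 log2 in TK6 and 5.12 log2 in G361. FCRLA, an intracellular Fc receptor-like protein, averaged 6.68 log2 in TK6 and 6.73 log2 in G361, so it was called against the mean of the lines and not against G361. CR2, BLK, BCL10 and RASGRP3 were not called, and CD81, a tetraspanin found on many cell types, was at 9.12 log2 in TK6 and 10.01 log2 in the other lines, also without a call.

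**Figure D3:**
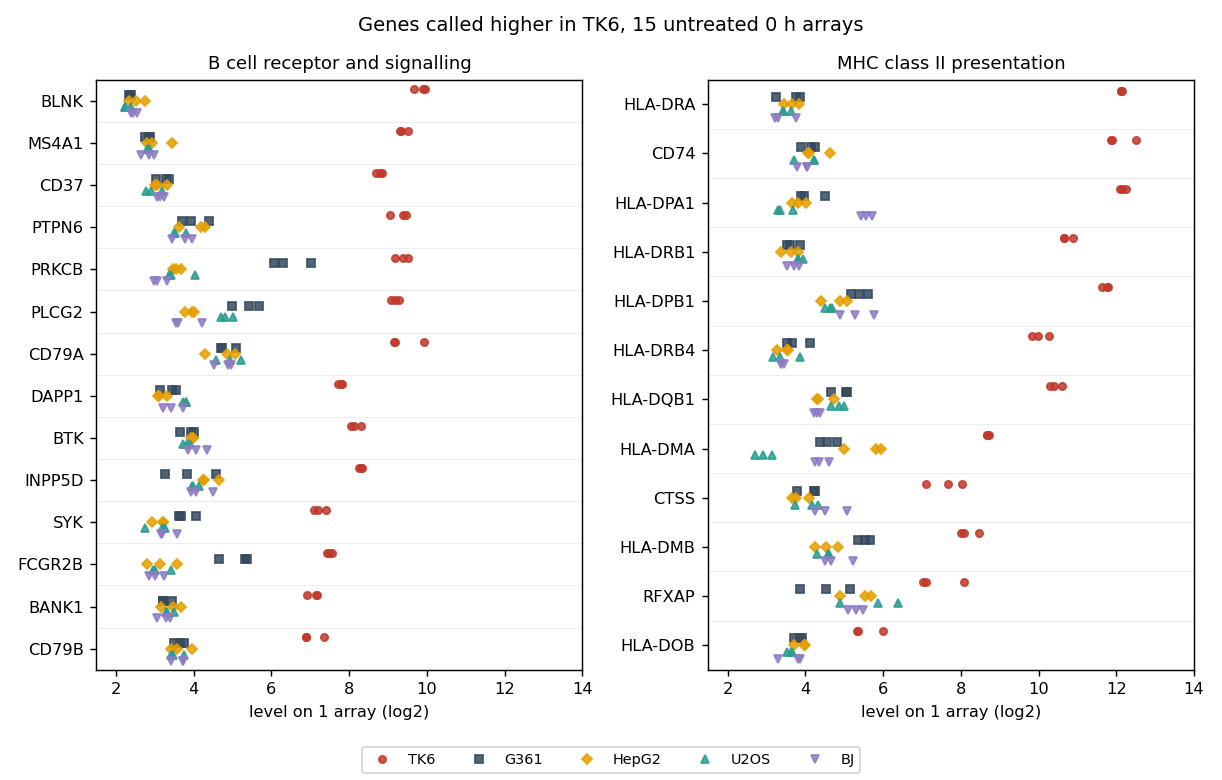
Levels on each of the 15 untreated arrays (log2, horizontal) for the 14 genes of the B cell receptor list and the 12 MHC class II genes called higher in TK6 with the largest differences, TK6 in red circles and the other lines in their own symbols. All 3 TK6 arrays lie above all 12 others for every gene drawn, and PRKCB, PLCG2 and FCGR2B have G361 as the nearest line.

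Immunoglobulin genes were mostly not called, and 1 of 11 measured members was higher, near the 8.55% of all genes. IGKC, the kappa light chain constant region, was at 8.89, 8.97 and 9.19 log2 in TK6, against 4.15 to 4.63 log2 (median 4.40), a difference of 4.64 ± 0.15 log2 (adjusted p = 1.59e-18 by limma). IGLC1, a lambda constant region, differed by 0.11 log2 and JCHAIN, which joins secreted immunoglobulin, by -0.27 log2. For the mu heavy chain IGHM the probe sets did not agree. The one with the highest mean level differed by -0.10 log2, whereas 3 others were called higher, the largest at 6.74, 6.18 and 6.11 log2 in TK6 against 2.83 to 3.66 log2 (median 3.09), with an adjusted p of 1.71e-13 over all probe sets in limma. The delta chain IGHD likewise had a probe set that differed by 2.88 ± 0.18 log2 while the one used differed by -0.12 log2. These readings of single probe sets were made after the values were seen.

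B lineage transcription factors went both ways, with 11 of 22 measured higher and 3 lower. EBF1, which specifies the B lineage, averaged 9.17 ± 0.06 log2 in TK6 (SD, n = 3), against 3.03 in BJ, 3.13 in HepG2, 5.11 in G361 and 5.44 in U2OS. IRF8 was at 9.63, 10.06 and 10.08 log2 in TK6, against 3.93 to 6.96 log2 (median 4.56). IRF4, which drives activated B cells and plasma cells, was at 9.59, 9.48 and 9.41 log2 in TK6, against 3.60 to 7.53 log2 (median 3.81). Its highest values outside TK6 were those of G361, at a mean of 7.20 log2, and MEF2C had G361 as its nearest line too, at 8.07 log2 against 9.39 log2 in TK6. SPIB, an Ets factor of B cells, differed by 3.89 ± 0.17 log2 and the Ikaros factors IKZF1 and IKZF3 by 2.73 ± 0.16 and 2.41 ± 0.16 log2.

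PAX5, the factor that holds B cell identity, depended on the probe set. The probe set with the highest mean level over the series was at 4.72, 4.78 and 4.93 log2 in TK6, against 4.55 to 5.30 log2 (median 4.77), and was not called. Its other probe set was at 9.63, 9.60 and 9.53 log2 in TK6, against 2.52 to 3.00 log2 (median 2.82), a difference of 6.79 ± 0.14 log2 with an adjusted p of 2.99e-22 over all probe sets in limma. A reader of the first alone would find no PAX5 difference, and the second, examined after the first value was seen, puts it among the largest in the list. CIITA, the class II coactivator, showed the same split, with 0.08 log2 for the probe set used and 2.58 ± 0.17 log2 for another, at 6.00, 5.27 and 5.21 log2 in TK6 against 2.56 to 3.43 log2 (median 2.89).

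The lower factors included BCL6, the repressor that maintains germinal centre B cells. It was at 3.29, 2.30 and 2.70 log2 in TK6, against 6.63 to 8.12 log2 (median 7.68) on the other arrays, and differed by -4.73 ± 0.19 log2 (adjusted p = 1.16e-16 by limma). Only the probe set used showed it, since its 2 others differed by -0.82 and -0.25 log2 and were not called. LEF1, a Wnt pathway factor, differed by -4.02 ± 0.17 log2 on the probe set used and by 0.05 and -0.49 log2 on its others. BCL11A, another factor in the list, differed by -0.67 log2 on the probe set used and was counted as not called. On 2 of its other probe sets, examined after the values were seen, it differed by -2.28 and -1.90 log2 and was called lower. Among germinal centre genes 2 of 12 were higher and 3 lower: GCSAM, a germinal centre signalling protein, averaged 6.95 log2 in TK6 and 2.69 log2 in the other lines, and P2RY8 5.70 and 3.18 log2, while BCL6, MME (CD10) and MYBL1 were lower. MME was at 4.87 log2 in TK6 and 4.75 log2 in U2OS, with no call against that line.

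Plasma cell genes had 3 of 12 members higher and 1 lower. MZB1, a chaperone of immunoglobulin assembly, was at 9.03, 8.64 and 8.69 log2 in TK6, against 4.16 to 5.23 log2 (median 4.79). CD38, an ectoenzyme of activated lymphocytes, differed by 3.59 ± 0.16 log2 and TNFRSF17, the BCMA receptor, by 3.25 ± 0.13 log2. SDC1 (CD138), a plasma cell marker that epithelial and mesenchymal cells also carry, was lower at 7.44 log2 in TK6 against 8.72 log2 in the other lines, though above G361 at 6.59 log2. PRDM1 and XBP1, the factors of plasma cell differentiation, were not called.

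Of the MHC class II genes, 12 of 17 measured members were higher than in every other line and none was lower, with a median difference of 3.46 log2. HLA-DRA, the shared alpha chain of HLA-DR, was at 12.12, 12.14 and 12.12 log2 in TK6, against 3.22 to 3.85 log2 (median 3.54), a difference of 8.57 ± 0.16 log2 (adjusted p = 9.15e-23 by limma). HLA-DPA1 was at 12.15, 12.25 and 12.08 log2 in TK6, against 3.29 to 5.71 log2 (median 3.93), with BJ nearest at a mean of 5.57 log2. HLA-DQB1 was at 10.60, 10.30 and 10.41 log2 in TK6, against 4.22 to 5.08 log2 (median 4.66). No array outside TK6 came near these values. The peptide-loading chaperones HLA-DMA and HLA-DMB averaged 8.70 and 8.18 log2 in TK6 and 4.38 and 4.84 log2 in the other lines. CTSS, the cathepsin that cleaves the invariant chain, differed by 3.46 ± 0.20 log2, and RFXAP, a subunit of the factor that binds class II promoters, by 2.18 ± 0.27 log2. HLA-DRB1 and HLA-DRB4 differed by 7.03 ± 0.15 and 6.51 ± 0.17 log2, but DRB paralogs are so alike that probe sets may not separate them. HLA-DQA1 was an exception, at 3.25, 3.55 and 3.62 log2 in TK6 against 2.69 to 3.27 log2 (median 3.00), and its 3 probe sets all differed by 0.50 log2 or less. HLA-DOA, counted as not called, differed by 0.26 log2 on the probe set used but was at 7.45, 6.79 and 6.89 log2 in TK6 on another, against 3.18 to 3.98 log2 (median 3.40), which was examined after the values were seen.

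Class II promoters are known for a CCAAT box, bound by NF-Y. The stretches below are the 130 bases just before the RefSeq transcription start (GRCh38.p14), 5′ to 3′ on the gene's strand, shown for 5 called members that hold the box so that it can be seen in place, with CCAAT and its reverse complement ATTGG in capitals. They lie at chr5:150412911-150413040 on the minus strand for CD74, chr6:32589849-32589978 on the minus strand for HLA-DRB1, chr6:33075860-33075989 on the plus strand for HLA-DPB1, chr6:32953098-32953227 on the minus strand for HLA-DMA and chr6:32666658-32666787 on the minus strand for HLA-DQB1.
CD74: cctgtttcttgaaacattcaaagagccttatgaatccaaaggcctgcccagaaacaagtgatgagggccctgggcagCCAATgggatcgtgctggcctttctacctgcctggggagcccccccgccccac
HLA-DRB1: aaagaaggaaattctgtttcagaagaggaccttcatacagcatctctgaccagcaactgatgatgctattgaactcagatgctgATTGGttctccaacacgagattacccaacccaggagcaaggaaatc
HLA-DPB1: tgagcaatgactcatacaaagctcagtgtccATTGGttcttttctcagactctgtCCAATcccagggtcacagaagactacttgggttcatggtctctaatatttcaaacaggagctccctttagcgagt
HLA-DMA: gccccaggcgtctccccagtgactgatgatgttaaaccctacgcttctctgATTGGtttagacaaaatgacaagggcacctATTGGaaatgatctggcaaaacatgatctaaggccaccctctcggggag
HLA-DQB1: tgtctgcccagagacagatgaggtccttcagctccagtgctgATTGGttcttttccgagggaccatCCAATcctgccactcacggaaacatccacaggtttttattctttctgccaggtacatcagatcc

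A promoter was listed for 9 of the 12 class II members called higher. Within the 250 bases before the start, CCAAT on either strand occurred in 7 of the 9 (77.8%), against 37.0% of 27305 genes, and at least 2 copies occurred in 5 (55.6%), against 11.5%. Of the 4 members not called that had a promoter, HLA-DQA1, RFX5 and HLA-DOA held the box and RFXANK did not, so it was present in uncalled members too. A match describes the letters only, and most of these genes are neighbours on chromosome 6.

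MHC class I genes were higher in TK6 in 13 of 18 measured members, with a median difference of 1.82 log2, and 9 exceeded every other line. HLA-B, a heavy chain, was at 12.87, 12.68 and 12.72 log2 in TK6, and averaged 8.29 in HepG2, 8.92 in G361, 10.22 in U2OS and 11.75 log2 in BJ. NLRC5, the class I coactivator, differed by 3.16 ± 0.19 log2 and PSMB9, an immunoproteasome subunit, by 3.03 ± 0.13 log2. PSMB8 and PSMB10 averaged 10.60 and 10.14 log2 in TK6 and 8.61 and 7.96 log2 in the other lines. B2M, the light chain, differed by 0.64 ± 0.08 log2, under the 2-fold limit. ERAP2, a peptide-trimming protease, was lower on average at 4.59 log2 in TK6, against 7.86 in HepG2, 6.87 in G361, 5.02 in BJ and 3.34 log2 in U2OS.

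Genes of NF-kB and CD40 activation were higher in 29 of 37 measured members and lower in 1, with a median difference of 1.98 log2. CD48, a ligand on activated lymphocytes, was at 11.30, 10.98 and 11.28 log2 in TK6, against 2.86 to 3.86 log2 (median 3.21). FCER2 (CD23), the low-affinity IgE receptor of activated B cells, was at 9.83, 9.61 and 9.38 log2 in TK6, against 3.46 to 4.45 log2 (median 4.05). EBI3, a cytokine subunit, was at 9.52, 9.35 and 9.56 log2 in TK6, against 3.55 to 5.58 log2 (median 4.18). Their arrays did not overlap those of other lines. Inhibitors of the pathway were higher too, with NFKBIA at 11.44 log2 in TK6 and 8.47 log2 in the other lines, and TNFAIP3 at 10.66 and 6.55 log2. The subunit genes REL, NFKB2 and NFKB1 differed by 3.34 ± 0.13, 1.91 ± 0.16 and 1.49 ± 0.11 log2. CD40, CD70, CD80, CD86 and CD83, surface proteins of B and T cell contact, differed by 1.98 log2 for CD80 to 3.81 log2 for CD86. TNFAIP2 was the lower member, at -1.32 ± 0.19 log2, but its second probe set differed by -0.13 log2 and the mean of both was not called. IL10, IL2RA, CCL17 and TRAF3 were not called.

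Chemokine and lipid receptors of leukocytes were higher in 8 of 15 measured members. CCR7, which guides cells to lymph nodes, was at 10.31, 10.56 and 10.72 log2 in TK6, against 2.56 to 3.26 log2 (median 2.67). CXCR4 was at 8.45, 8.67 and 8.65 log2 in TK6, against 3.43 to 4.08 log2 (median 3.84). GPR183, the oxysterol receptor that positions B cells, differed by 5.40 ± 0.19 log2 (SE, adjusted p = 9.13e-18 by limma). CXCR5, CCR6, S1PR1, S1PR4 and GPR132 were not called.

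Pan-leukocyte genes were higher in 30 of 34 measured members, 27 of them above every other line, and the median difference was 3.87 log2. CD53, a leukocyte tetraspanin, was at 11.52, 11.29 and 11.46 log2 in TK6, against 3.15 to 5.95 log2 (median 3.69). CORO1A, an actin regulator of blood cells, was at 11.30, 10.80 and 10.96 log2 in TK6, against 3.92 to 5.52 log2 (median 4.83). PTPRC (CD45) was at 6.65, 6.89 and 7.04 log2 in TK6, against 2.95 to 3.58 log2 (median 3.15). Several of these genes were also present in the arrays labelled HepG2. LCP1, the actin bundler L-plastin, averaged 11.56 log2 in TK6, 9.92 log2 in HepG2 and 3.92 to 4.67 log2 in the rest, and RAC2 averaged 11.37 log2 in TK6 and 10.92 log2 in HepG2 without a call against that line. ITGA4, an integrin of lymphocytes, averaged 8.65 log2 in TK6 and 8.44 log2 in BJ, also without a call against the nearest line. NCKAP1L, a leukocyte actin regulator counted as not called, differed by 0.67 log2 on the probe set used and by 3.48 and 3.79 log2 on its others. The count without the arrays labelled HepG2 was again 30.

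Markers of other blood cells were examined in the same way. Of 20 T cell and natural killer cell markers, 2 were higher and 3 lower, near the shares of all genes, 8.55% and 11.4%. NKG7, a protein of cytotoxic granules, was at 9.03, 8.43 and 8.64 log2 in TK6, against 2.70 to 3.41 log2 (median 3.10), a difference of 5.61 log2 (adjusted p = 1.56e-19 by limma). CD2 averaged 4.90 log2 in TK6 and 3.37 log2 in the other lines. CD3D, CD3E, CD3G, CD8A, GNLY and PRF1 were not called, so NKG7 was not accompanied by the defining T cell genes. GZMB was lower only through the arrays labelled HepG2, at 8.51 log2 there and 3.05 log2 in TK6. Of 13 measured myeloid and red cell markers 1, S100A9, was higher, again near the share of all genes. It was at 4.46 log2 in TK6 and 3.09 log2 in the other lines.

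Collagens and matrix proteins were lower in TK6 in 30 of 34 measured members, none was higher, and the median difference was -3.85 log2. COL4A2, a basement membrane collagen, was at 3.37, 3.79 and 3.62 log2 in TK6, against 9.59 to 12.24 log2 (median 10.99). FN1, the fibronectin gene, was at 5.74, 5.55 and 5.72 log2 in TK6, against 9.86 to 13.45 log2 (median 11.41), a difference of -5.97 log2 (adjusted p = 8.4e-21 by limma). TIMP2, a metalloproteinase inhibitor, was at 3.27, 3.37 and 3.31 log2 in TK6, against 9.55 to 12.44 log2 (median 11.34). All 3 were far below every other line, as were SPARC, TGFBI, LOXL2, TNC, COL4A1 and COL6A1. In all, 13 of 34 members were lower than in every line, and the other 17 lower members were not called against the nearest line. COL1A2 was at 4.04 log2 in TK6 and at 3.95 to 4.15 log2 in G361, HepG2 and U2OS, and only BJ, at 13.56 log2, set the difference. POSTN likewise averaged 2.92 log2 in TK6 and 12.53 log2 in BJ, with 2.87 to 3.05 log2 in the others. Without BJ, 24 of 34 were lower. All 12 fibroblast markers were lower against the mean and none against the nearest line, and without BJ 8 were lower.

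Genes of focal adhesion, caveolae and stress fibres were lower in 30 of 43 measured members and higher in 1, with a median difference of -2.09 log2. Against the nearest line, 18 were lower and none was higher. TPM1, an actin-stabilising tropomyosin, was at 2.53, 2.71 and 2.78 log2 in TK6, against 8.89 to 12.74 log2 (median 11.80), a difference of -8.72 log2 (adjusted p = 3.15e-24 by limma). CAV2, a caveolin, was at 1.92, 1.81 and 2.26 log2 in TK6, against 7.74 to 11.24 log2 (median 9.45). CD44, the hyaluronan receptor, was at 3.07, 2.44 and 3.03 log2 in TK6, against 9.09 to 12.11 log2 (median 11.09). Integrins differed by unequal amounts: ITGB5 differed by -6.05 log2, ITGA6 by -5.29 log2, ITGAV by -2.90 log2, ITGA5 by -2.72 log2 and ITGB1, the common beta chain, by -1.93 log2. ITGB3 was the member that was higher, at 6.40 log2 in TK6 and 4.97 log2 in the other lines. Only 2 of its 7 probe sets were higher by at least 1 log2, and the mean of them was not called higher. VIM, TLN1, TPM4, ACTA2 and LGALS1 were not called, and VCL was at 9.16 ± 0.02 log2 in TK6 and 10.13 log2 in the other lines, just under the 2-fold limit.

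In the YAP and TEAD pathway, regulators and part of the target genes were lower. Of 26 measured members 17 were lower, none was higher, 14 lay below every other line and the median difference was -3.37 log2. YAP1, the coactivator, was at 2.77, 2.61 and 2.55 log2 in TK6, against 8.47 to 10.15 log2 (median 9.33), a difference of -6.65 log2 (adjusted p = 1.64e-22 by limma). TEAD1, its DNA-binding partner, was at 2.95, 2.45 and 2.58 log2 in TK6, against 9.20 to 11.07 log2 (median 10.42). WWTR1 (TAZ) was at 5.12, 4.98 and 4.78 log2 in TK6, against 6.71 to 10.72 log2 (median 9.92). YAP1 and TEAD1 were thus low in TK6, and WWTR1 differed by -2.20 log2 from its nearest line. Of the targets, CCN1 was at 4.12, 4.38 and 3.49 log2 in TK6, against 6.50 to 11.37 log2 (median 10.13), and CCN2 at 2.47, 2.23 and 2.75 log2, against 4.12 to 12.36 log2 (median 10.21). The scaffold AMOTL2, the phosphatase PTPN14 and the kinase LATS2, which restrain YAP1, were also lower, by -4.95, -4.51 and -3.51 log2. LATS1, TEAD4, AMOT, WWC1 and NF2 were not called, and neither were the targets ANKRD1 (-0.94 log2), FJX1 (-0.15), GADD45B (0.12) and NT5E (0.91). For NT5E, 3 of 4 probe sets were higher in TK6 by at least 1 log2.

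TEAD factors bind the element GGAATG, and its occurrence in CCN2 is shown for orientation. The sequence is the stretch from 180 to 51 bases before the RefSeq start on the minus strand, chr6:131951423-131951552 (GRCh38.p14), 5′ to 3′, with GGAATG in capitals.
CCN2: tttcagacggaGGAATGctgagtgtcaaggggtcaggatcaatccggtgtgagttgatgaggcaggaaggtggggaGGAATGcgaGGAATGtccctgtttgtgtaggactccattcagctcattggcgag

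Among members of the pathway called lower, 13 of 17 had a listed promoter. GGAATG or its reverse complement CATTCC occurred within 250 bases before the start in 6 of these (46.2%), against 14.3% of 27305 genes. Among the 13, CCN2 was the 1 gene (7.69%) with 2 or more copies, against 1.18%. Of the members not called, ANKRD1 held 2 copies, and LATS1, AMOT, WWC1, NF2, FJX1, GADD45B and NT5E held none. A match describes the letters only.

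**Figure D4:**
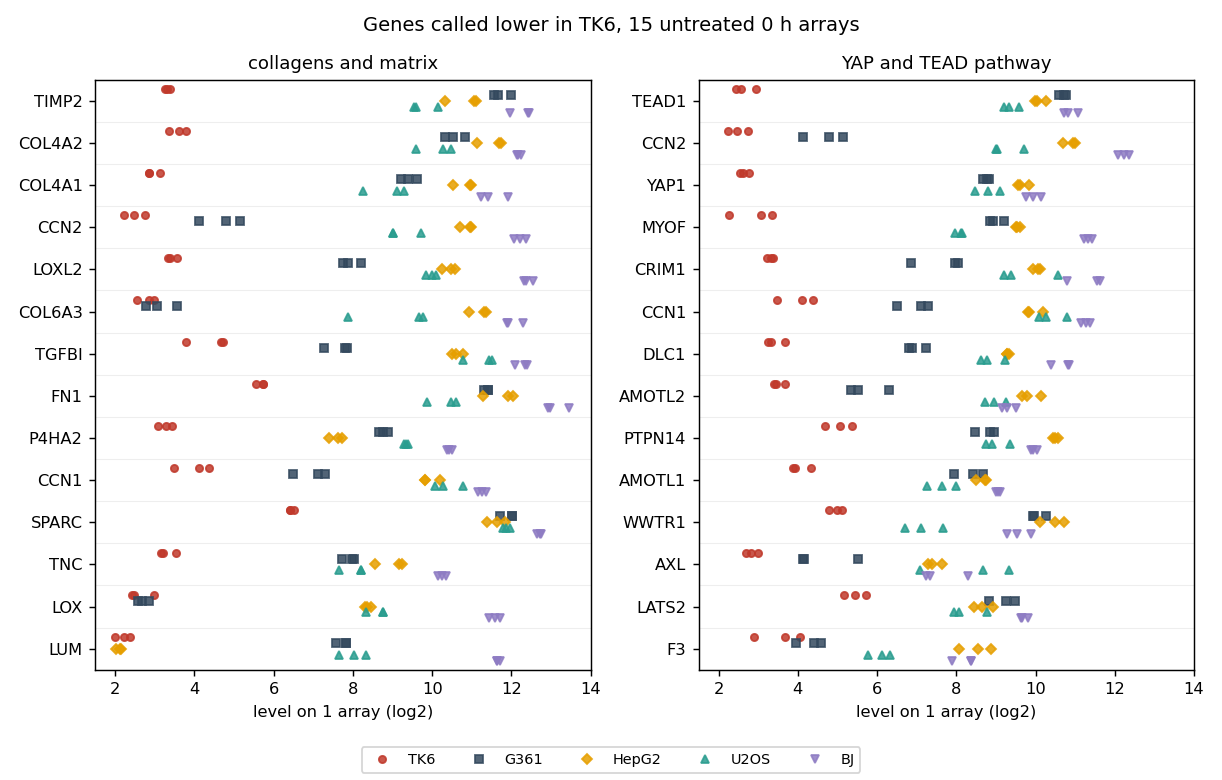
Levels on each of the 15 untreated arrays (log2, horizontal) for the 14 members of the matrix list and of the YAP and TEAD list with the largest deficits in TK6 (red circles). TK6 lies alone at the left except for COL6A3, LOX, LUM and F3, where G361 or HepG2 arrays reach the TK6 values.

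Cadherins, catenins and junction genes were mixed against the mean, with 3 of 17 measured higher and 9 lower. Against the nearest line, 6 were lower and none was higher. Only 1 member was called higher at 3 h, at 6 h and with the mean of probe sets. TJP1 (ZO-1), a tight junction scaffold, was at 2.20, 2.71 and 2.36 log2 in TK6, against 8.41 to 9.84 log2 (median 9.33). CDH2, N-cadherin, was at 4.96, 4.59 and 4.44 log2 in TK6, against 8.97 to 11.98 log2 (median 10.05). CDH1, E-cadherin, went the other way at 5.55, 6.06 and 6.05 log2 in TK6, close to G361 at 5.51 log2 and above the 2.43 to 2.88 log2 of the 3 remaining lines. The second probe set of CDH1 differed by 0.13 log2.

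Growth factor receptors were lower in 21 of 27 measured members and higher in 1, with a median of -2.04 log2. Against the nearest line, 9 were lower and 1 was higher. MET, the hepatocyte growth factor receptor, was at 2.84, 2.70 and 2.68 log2 in TK6, against 7.98 to 10.29 log2 (median 9.46). TGFBR2, a receptor for TGF-beta, was at 3.71, 3.28 and 3.84 log2 in TK6, against 8.12 to 10.06 log2 (median 9.30). Both were far below every other line. EGFR averaged 3.09 log2 in TK6 and 3.28 log2 in G361, against 6.01 to 9.63 log2 in the rest, and was not called against G361. INSR, the insulin receptor, was the higher member, at 7.88, 7.87 and 7.99 log2 in TK6, against 3.49 to 7.10 log2 (median 5.85).

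Markers of the other lines' tissues were looked at next. Of 8 measured melanocyte markers 6 were lower in TK6, with TYRP1 at 2.33 log2 in TK6 and 12.78 log2 in G361, and none was lower without G361. Among 7 measured osteoblast markers RUNX2, SPP1 and SPARC were lower than in every line. RUNX2, the osteoblast factor, averaged 2.56 log2 in TK6, 4.22 in G361, 7.76 in BJ, 8.16 in U2OS and 9.12 log2 in HepG2. Only 1 of its 6 probe sets was lower by at least 1 log2, the mean of them differed by -0.87 log2 without a call, and the second probe set of SPP1 differed by -0.22 log2.

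Genes of the BCL2 family, which promote or oppose cell death, were higher in 5 of 15 measured members and lower in 1. BCL2A1, an NF-kB-induced survival factor, averaged 9.56 log2 in TK6 and 10.34 log2 in G361, against 2.71 to 6.17 log2 in the other lines. BCL2 was at 7.83, 7.67 and 7.54 log2 in TK6, against 3.09 to 7.37 log2 (median 4.91). Only 1 of 4 BCL2 probe sets was higher by at least 1 log2, and the mean of them differed by 0.88 log2 without a call. PMAIP1 (NOXA), a death-promoting member, differed by 2.48 ± 0.12 log2 from the mean and by 0.21 log2 from HepG2. None of the 15 was called higher against the nearest line. BOK was lower than in every line, at 3.33 ± 0.02 log2 in TK6 (SD, n = 3) against 5.01 to 8.72 log2, but its second probe set differed by -0.18 log2. BAX, BAK1 and MCL1 were not called. Without BJ, 3 members were higher.

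The D-type cyclins, which start the cell cycle, differed in opposite directions. CCND1, cyclin D1, was at 2.95, 2.43 and 2.87 log2 in TK6, against 7.75 to 10.74 log2 (median 9.23), a difference of -6.51 log2 (adjusted p = 1.82e-20 by limma). CCND2, cyclin D2, was at 10.00, 9.95 and 9.83 log2 in TK6, against 2.80 to 9.75 log2 (median 5.64). CCND1 was lower than in every line, whereas CCND2 averaged 9.73 log2 in U2OS and had no call against that line, and CCND3 was not called. RB1, the retinoblastoma gene, was higher than in every line at 10.24, 10.98 and 10.52 log2 in TK6, against 7.86 to 9.48 log2 (median 8.75). CDKN2A, whose products restrain the cell cycle, averaged 6.36 log2 in TK6, between BJ at 7.38 log2 and the 3 tumour lines at 3.98 to 4.36 log2. Only 1 of its 3 probe sets was higher by at least 1 log2, and the mean of them differed by 0.47 log2 without a call. In all, 4 of 16 measured genes of cyclin kinase inhibitors, cyclins and RB proteins were higher and 3 lower.

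Most proliferation genes, like most of all genes, were not called. Of 40 G2 and mitosis genes 8 were higher, a larger share than the 8.55% of all genes, and 1 lower. Their median was 0.55 log2, and none was called against the nearest line. Of 33 measured DNA replication genes 3 were higher and 2 lower, with a median of 0.31 log2. Without BJ, 2 mitosis genes and 0 replication genes were called higher (limma) and 3 in each list lower. MKI67, the proliferation marker Ki-67, was at 9.63, 9.38 and 9.55 log2 in TK6, against 6.94 to 8.89 log2 (median 7.34), a difference of 1.90 ± 0.12 log2 (adjusted p = 2.7e-12 by limma), and it kept its call without BJ. MCM2 averaged 10.58 log2 in TK6 and 7.95 log2 in BJ but 10.70 log2 in HepG2.

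Of 26 measured genes of the p53 network 3 were higher and 2 lower at baseline, where 8.55% of all genes were higher and 11.4% lower. TNFRSF10A, a death receptor for TRAIL, was at 7.84, 8.03 and 7.84 log2 in TK6, against 2.90 to 4.18 log2 (median 3.18), a difference of 4.56 log2 (adjusted p = 3.5e-17 by limma). FAS, another death receptor, was at 10.46, 10.43 and 10.46 log2 in TK6, against 5.63 to 9.37 log2 (median 8.24). Both exceeded every other line. SESN2 was higher than the mean but not than BJ, at 8.32 and 8.17 log2. FUCA1, a lysosomal fucosidase, was lower at 5.59, 4.57 and 4.38 log2 in TK6, against 5.58 to 8.43 log2 (median 7.08), but its second probe set differed by -0.02 log2. TP53I3 was lower on average, above G361. CDKN1A, MDM2, BAX, PPM1D, ATM and GDF15 were not called, and MDM2 differed by 0.70 log2.

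TK6 is used in mutation assays that select against thymidine kinase or HPRT1, and these reporter genes were measured with genes of DNA repair. TK1, thymidine kinase, was at 6.79, 6.71 and 6.85 log2 in TK6, against 7.30 to 9.74 log2 (median 8.93), a difference of -2.06 ± 0.21 log2 (adjusted p = 6.3e-09 by limma). Its mean was the lowest of the 5 lines, with a difference of -1.53 log2 from BJ (adjusted p = 8.03e-05), and the second probe set of TK1 differed by -2.05 log2. MGMT, which removes alkyl groups from guanine, was at 3.84, 3.74 and 3.82 log2 in TK6. It averaged 3.32 in HepG2, 4.31 in U2OS, 6.84 in G361 and 6.98 log2 in BJ, so it was called against the mean of the lines and not against HepG2. HPRT1 and PIGA were higher than the mean, by 1.10 and 1.97 log2, but the second probe set of HPRT1 differed by -0.07 log2 and its call was lost without BJ (0.83 log2) and with the mean of both probe sets (0.51 log2). UNG, a uracil glycosylase, was lower, with a difference of -1.05 ± 0.13 log2, just past the 2-fold limit. Its call was lost in several settings, among them median centring (-0.80 log2) and leaving out G361 (-0.90), HepG2 (-0.89) or U2OS (-0.94). MSH6, OGG1, MPG, APEX1 and APRT were not called.

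**Figure D5:**
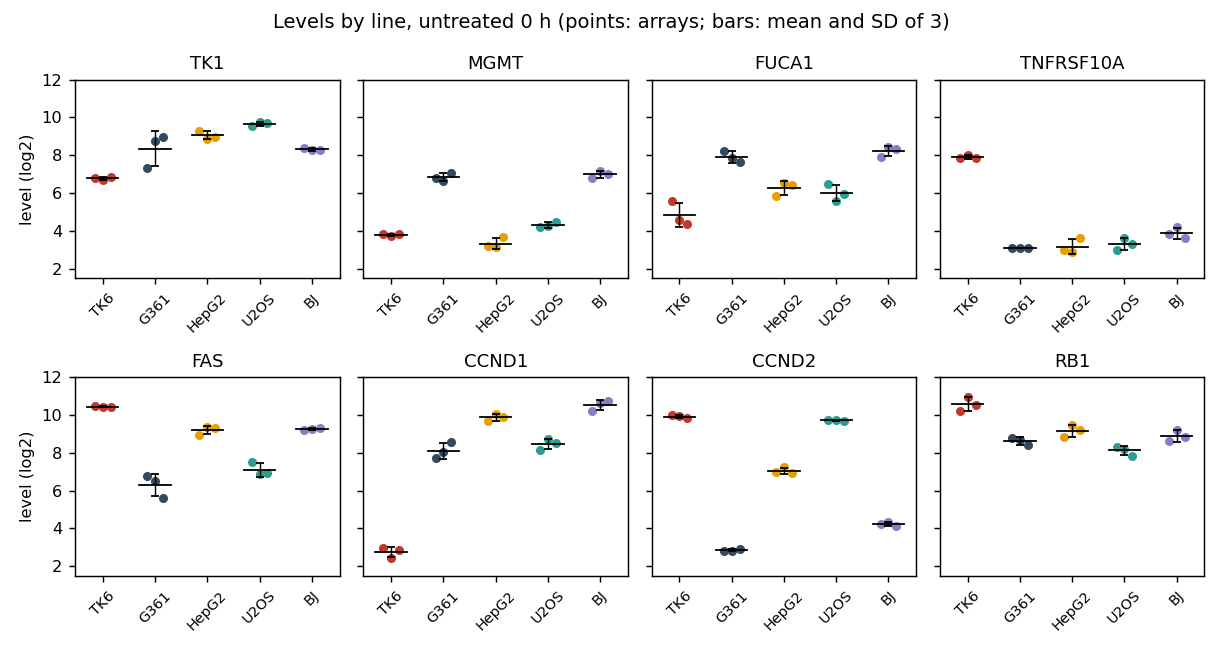
Levels (log2) of TK1, MGMT, FUCA1, TNFRSF10A, FAS, CCND1, CCND2 and RB1 on the 3 untreated arrays of each line (points), with the mean and SD of 3 (bars), TK6 at the left. TK6 is lowest for TK1 and CCND1 and highest for TNFRSF10A, FAS and RB1, and CCND2 is nearly as high in U2OS.

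Interferon-stimulated genes were split, with 12 of 32 measured members higher and 6 lower. BST2 (tetherin), an antiviral surface protein, was at 10.66, 10.12 and 10.48 log2 in TK6, against 3.63 to 5.35 log2 (median 4.37). IFITM1 was at 11.06, 10.70 and 10.75 log2 in TK6, against 3.26 to 10.84 log2 (median 4.04), where BJ held the high values. IFITM3 was lower than in every line, at 6.59, 6.68 and 5.82 log2 in TK6 against 7.41 to 13.05 log2 (median 10.52), a difference of -4.10 log2 (adjusted p = 2.61e-15 by limma). These IFITM genes are neighbouring paralogs that restrict virus entry, and probe sets may share sequence between them. MX2, OAS1, OAS2, IFIH1, IRF1 and IFIT3 were higher than in every line. ISG15, IFI27, IFI44L and OASL were not called, and MX1, IFIT1, IFI6 and IFI44 were lower than the mean.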

How the data were processed

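RNA of each sample was hybridised to its own array of 54675 probe sets. The authors deposited log2 values from RMA, per the submitters' processing notes. Neither these notes nor the labels state which release was run or whether the 5 lines were processed jointly, on which level differences between lines depend. Depth has no counterpart on arrays, and 3 arrays per group limit the precision. Probe sets were named through GEO's platform annotation: 41097 had 1 symbol, 1801 several and 11777 none here. Of the first, 41043 matched RefSeq identifiers and 0 symbols changed. For each of 19775 genes (10523 with several probe sets) the one with the highest mean over 75 arrays was used.

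A model of 5 group means was fitted to 15 arrays (10 residual degrees of freedom, eBayes with trend) in R 4.3.3 with limma 3.58.1, with Benjamini-Hochberg adjustment over all genes; the nearest-line call used the largest of 4 p-values. The script was tested on simulated data. The members and the 29 lists (members without a named probe set were not analysed here) were chosen with earlier results of these data known. Named were the 12 largest nearest-line differences in each direction and, per list, up to 6 members with the smallest adjusted p, members called against the nearest line and members shown as not called. The 12 in each direction were taken only from genes whose TK6 arrays did not overlap those of the other lines. Y-linked genes and XIST were left out. Other genes named in the text were chosen after their values were seen. Promoters were RefSeq's. Alternatives are given in the closing section.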

Additional observations from a re-analysis of the deposited data

How the results depend on the processing

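Leaving out each replicate number in all lines, each TK6 array, or replicate 1 of G361 gave 1662 to 1755 genes higher and 2196 to 2317 lower against the mean, and 733 to 766 higher and 731 to 787 lower against the nearest line. Requiring only the adjusted p gave 4525 higher and 4501 lower, and 1408 and 1166 against the nearest line, while testing against 1 log2 (treat) left 988 and 390 higher. Centring each array on its median moved the median of all genes by 0.25 log2 and gave 2377 higher and 1838 lower, 56.4% of calls higher against 42.8% as reported; quantile normalization gave 1669 and 2264, and the mean of each gene's probe sets 1435 and 1767. Replicate numbers did not pair the arrays (lowest correlation -0.16 with G361, 0.11 with BJ), and a replicate block gave 1691 and 2262, and 747 and 758 against the nearest line. Of 151 named genes, 30 lost the call in at least 1 setting while keeping their sign. Settings in which a sign turned are not part of that count. Signs turned for GZMB (0.12 log2 without HepG2), for MLANA (0.11), PMEL (0.38), SLC45A2 (0.26), TYR (0.19) and OCA2 (0.0156) without G361, for SERPINA1 (0.21 without U2OS) and for IGHM (3.18 on the probe set with the largest difference, a setting chosen after seeing the data); the cause was not tested. G2 and mitosis had 14 members higher after median centring and 12 without HepG2, against 8 as reported. Low levels limit how far differences can be read.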

Other observations

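Outside the lists, and chosen after their values were seen, several genes best known from tissues other than blood were higher in TK6 than in every other line. LHX2, a homeobox factor of the developing forebrain and hair follicle, was at 9.75, 9.67 and 9.61 log2 in TK6, against 2.55 to 3.53 log2 (median 2.96) on the other 12 arrays. BHLHE22, a neuronal transcription factor, was at 9.41, 9.94 and 9.47 log2 in TK6, against 2.85 to 3.58 log2 (median 3.07). MEOX1, a homeobox factor of the somites, was at 8.92, 8.44 and 8.28 log2 in TK6, against 2.48 to 3.99 log2 (median 2.96). None of these groups overlapped, and limma's adjusted p for the nearest line was 4.23e-17 for LHX2, 1.41e-17 for BHLHE22 and 9.09e-16 for MEOX1. GPM6A, a neuronal membrane glycoprotein, exceeded its nearest line by 5.30 log2, GATM, an enzyme of creatine synthesis, by 6.04 log2 and TINAG, a basement membrane protein of the kidney, by 4.79 log2.

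Among lymphoid genes outside the lists, TLR10, a B cell Toll-like receptor, averaged 9.83 ± 0.04 log2 in TK6 (SD, n = 3) and 3.28 log2 in the other lines, and CD69, an early activation marker, 8.93 ± 0.08 and 2.33 log2. IKZF2 (Helios), an Ikaros factor better known from T cells, was at 10.03, 9.84 and 10.04 log2 in TK6, against 2.98 to 5.35 log2 (median 4.02). CCL5, a chemokine, was at 9.32, 8.97 and 9.29 log2 in TK6, against 3.70 to 4.62 log2 (median 4.01).

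Some genes outside the lists were lower in TK6 than in every other line. ITM2B, a widely expressed membrane protein, was at 3.13, 3.36 and 3.75 log2 in TK6, against 9.90 to 11.24 log2 (median 10.21). It lies on chromosome 13, as RB1 does, and RB1 was higher in TK6 than in every other line. Any relation between these genes was not tested. NOTCH2, a receptor that marginal zone B cells need in the mouse, was at 2.58, 2.66 and 2.52 log2 in TK6, against 8.88 to 10.40 log2 (median 9.80). BEX3, on the X chromosome, was at 4.02, 4.67 and 4.88 log2 in TK6, against 11.13 to 12.05 log2 (median 11.75).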
